A study of Mus musculus with 42 samples.

Results

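Paternally expressed imprinted genes are read mainly or only from the copy inherited from the father. The 10 genes described here are a list of known members of this class: Peg3, Peg10, Mest, Snrpn, Plagl1, Igf2, Zrsr1, Impact, Sgce and Dlk1. All 10 were listed among the 24083 genes of a table of embryo stages and among the 23986 genes of a table of morulae. Each allele's expression had been measured by Smart-seq2, a full-length method for very small RNA amounts, in mouse embryos of the strain label C57BL/6N X PWK/PhJ, in which the mother's strain is by convention written first.

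The stage table held wild-type female embryos. There were 3 samples at the 8-cell stage and 3 morulae. From E3.5 blastocysts came 3 samples of trophectoderm (TE) and 2 of the inner cell mass (ICM). At E6.5 there were 3 samples of visceral endoderm (VE), 2 of extraembryonic ectoderm (ExE) and 1 of epiblast, and 1 yolk sac was taken at E9.5. The morula table held wild-type control males (4 samples), control females (3) and females labelled Xp XRRa KO (4), a genotype the labels do not describe further, all of the same strain label. Another table, of EedmNull ExE, held X-linked genes only and none of the 10, all of which are autosomal. Each group had 1 maternal and 1 paternal column that pooled its samples, except the epiblast and yolk sac columns, which were 1 sample each. No spread between samples could therefore be computed, and no difference below was tested. The cross was made in 1 direction, so parent of origin and strain cannot be told apart in any single value. In such bulk samples, fewer cells that express a gene and less RNA per cell cannot be told apart either.

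The imprinting of the genes named next rests on DNA methylation that is set in 1 parent's germ cells and kept through the early embryo. For Peg3, Mest, Snrpn, Plagl1, Zrsr1, Impact and the Peg10–Sgce pair, the methylated copy is maternal and lies at the gene's promoter or nearby. For Igf2 and Dlk1 it is paternal and lies between the gene and a maternally expressed RNA gene, H19 or Meg3. The zinc finger protein ZFP57 binds the hexamer TGCCGC when it is methylated and helps to keep such marks.

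Values are in FPKM, a read density per length of transcript and per size of library, and the level of a gene is the sum of its alleles. The paternal share is the paternal FPKM divided by that sum. A gene with a sum of at least 1 FPKM was called measured, and a measured gene with a paternal share of at least 90% was called monoallelic from the father. A gene listed at 0 may be silent or may lack reads that tell the alleles apart.

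The promoter windows used here came from RefSeq (GRCm38.p6, a newer build than the mm9 named in the submitters' processing notes). They were 15 windows of 300 bases from 7 of the 10 genes, with none for Peg10, Sgce or Impact. Mest and Zrsr1 are shown as the genes that were measured in more than 1 stage column, were monoallelic from the father in each, and have a stretch before a start that overlaps no annotated exon. Each stretch is 250 bases that end just before an annotated start, 5′ to 3′, with TGCCGC or its reverse complement GCGGCA in capitals. The Mest stretch is at chr6:30737800-30738049 (plus strand) and the Zrsr1 stretch at chr11:22971755-22972004 (plus strand).
Mest: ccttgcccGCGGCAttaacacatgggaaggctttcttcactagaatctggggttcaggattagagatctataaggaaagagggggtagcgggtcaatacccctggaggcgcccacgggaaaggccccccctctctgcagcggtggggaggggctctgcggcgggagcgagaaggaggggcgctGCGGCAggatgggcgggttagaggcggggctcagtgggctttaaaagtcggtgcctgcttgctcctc
Zrsr1: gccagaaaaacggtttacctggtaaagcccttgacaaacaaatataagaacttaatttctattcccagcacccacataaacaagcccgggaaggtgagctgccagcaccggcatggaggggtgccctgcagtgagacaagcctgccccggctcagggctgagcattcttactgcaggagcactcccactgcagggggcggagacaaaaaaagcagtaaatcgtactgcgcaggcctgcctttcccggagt
The Mest stretch held the hexamer at 2 places, both as GCGGCA, and 14 CpG dinucleotides. The Zrsr1 stretch held none and 8 CpG. Searched on both strands over the 300 bases, TGCCGC was in 5 of the 15 windows, of which 2 are Mest windows that overlap almost wholly, and in 11.6% of 32851 promoter windows of all genes. Its absence from a window says only that these letters are not in it.

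Most of the measured values were monoallelic from the father, and more of the genes reached 1 FPKM in the later columns. Over the 8 stage columns, 40 of 80 gene and column pairs were measured and 34 of those had a paternal share of at least 90%. Without the sparse yolk sac column the counts were 33 and 27. In 8-cell embryos 2 of 2 measured genes passed 90%, beside 3.61% of autosomal genes at 1 FPKM. In morulae 2 of 3 passed (1.84% of autosomal genes), in ICM 3 of 3 (1.82%) and in TE 3 of 5 (1.65%). At E6.5 the counts were 4 of 4 in epiblast (1.65%), 7 of 8 in VE (0.709%) and 6 of 8 in ExE (1.38%). In yolk sac 7 of 7 passed, but so did 23.1% of autosomal genes, and another 24.9% had a share of 10% or less.

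**Figure D1:**
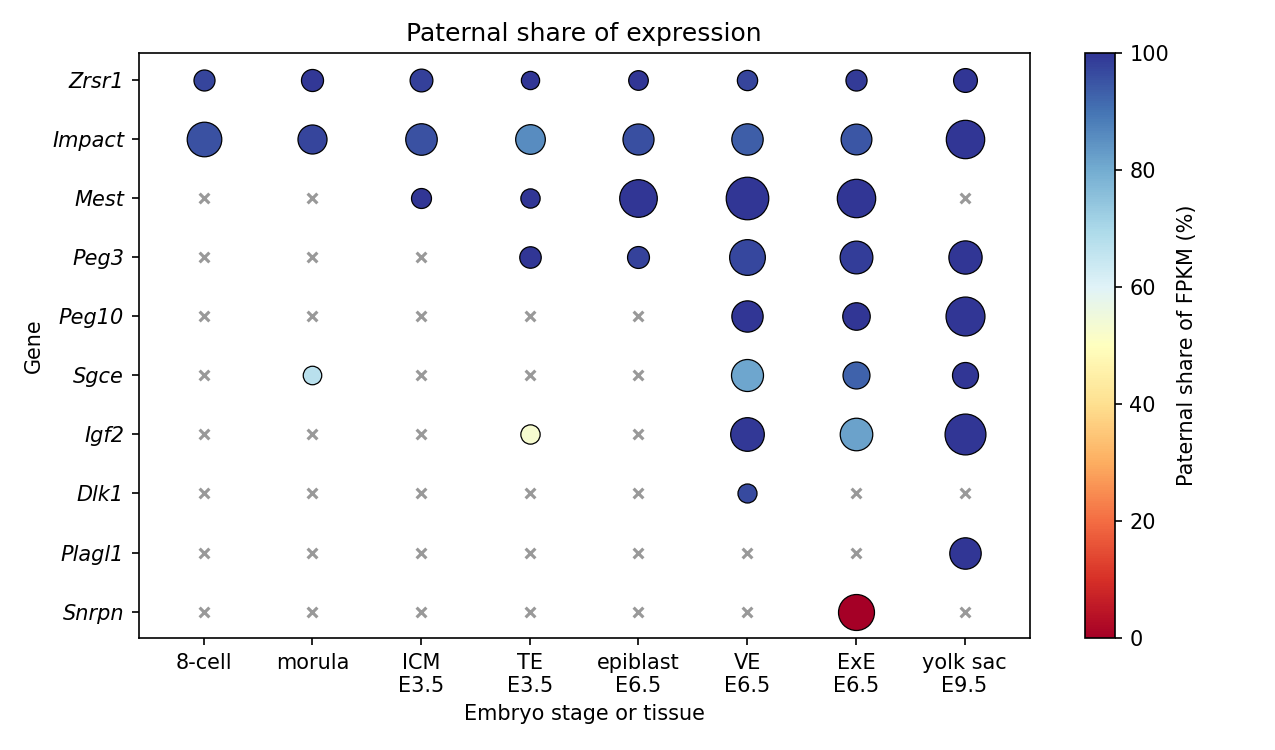
Paternal share of FPKM (colour, in percent) for the 10 genes in the 8 columns of the stage table, with dot area growing with log2 of total FPKM plus 1 and crosses for genes under 1 FPKM (ICM and TE are the blastocyst's cell layers, VE and ExE the E6.5 extraembryonic ones). Zrsr1 and Impact are measured in all 8 columns, and the paler dots are Impact and Igf2 in TE, Sgce in morula and VE, and Igf2 in ExE, with Snrpn in ExE at 0%.

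Zrsr1 and Impact were the genes already measured in 8-cell embryos. Zrsr1 encodes a splicing factor related to U2AF and sits in an intron of Commd1. Zrsr1 RNA from the father was at 1.97 FPKM at the 8-cell stage, 2.52 in morulae, 2.93 in ICM, 1.05 in TE, 1.46 in epiblast, 1.66 in VE, 2.04 in ExE and 3.71 in yolk sac. Its maternal FPKM was at most 0.0539, in 8-cell embryos, and was listed at 0 in TE, epiblast and yolk sac. The paternal share thus lay between 97.3% and 100% in all 8 columns. Zrsr1 was low throughout, and among autosomal genes between 1 and 5 FPKM a share of at least 90% was more frequent than among those at 5 FPKM or more (6.32% against 1.77% in 8-cell embryos). The host gene Commd1, which acts in copper handling and endosomal sorting, was far higher in sum and leaned to the other allele, with paternal shares of 33.9% in 8-cell embryos, 32.2% in morulae and 29.6% in ICM. At E6.5 the Commd1 share was between 42.3% and 43.6%.

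Impact encodes an inhibitor of the amino acid sensor kinase GCN2. In 8-cell embryos its maternal allele had 1.88 FPKM and its paternal allele 41.0. In morulae the maternal and paternal values were 0.313 and 11.2, in ICM 0.922 and 19.5, and in TE 1.86 and 11.4. At E6.5 they were 0.746 and 17.5 in epiblast, 1.25 and 18.4 in VE, and 0.906 and 16.2 in ExE. In yolk sac the paternal allele had 117 FPKM and the maternal allele was listed at 0. The paternal share, in the order of these columns, was 95.6%, 97.3%, 95.5%, 85.9%, 95.9%, 93.7%, 94.7% and 100%. TE was the only stage column under 90%. The maternal level of Impact in TE was close to that in 8-cell embryos, and its paternal level close to that in morulae. Oocyte markers summed to 0.842 FPKM in TE and 49.9 in 8-cell embryos, where Impact had the higher share. In 8-cell embryos 47.2 FPKM of this sum was Zp3, of which 61.8% was paternal. Oosp1, Bcl2l10 and H1foo of that list were at 0 in TE. Their part in the share of 85.9% was not tested. Between 8-cell embryos and morulae the total of Impact was 42.9 and 11.6 FPKM, a log2 ratio of -1.81 on FPKM plus 1. At least 2-fold lower totals were present in 5.89% of autosomal genes at 5 FPKM and 2-fold higher ones in 32.4%, and the autosomal median log2 ratio was 0.51.

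In the stage table, Mest and Peg3 were first measured at E3.5, and both were monoallelic from the father in each column where they were measured. In the morula table Mest was already measured, at 6.42 FPKM in control males and 6.57 in control females, all from the father. Mest encodes a protein with a hydrolase fold and is a classical marker of mesoderm. In ICM its paternal allele had 1.59 FPKM and in TE 1.36, with the maternal allele listed at 0 in both. In epiblast the paternal allele had 94.0 FPKM, in VE 387 and in ExE 117. The maternal allele in these tissues was listed at 0, at 0.235 and at 0.0350 FPKM. Mest therefore had shares of 99.9% to 100% across E3.5 and E6.5, and its level was higher by more than 5 on the log2 scale from E3.5 to E6.5: 5.20 for epiblast over ICM and 5.64 for ExE over TE. It was listed at 0 for both alleles in 8-cell embryos and in yolk sac. In the morulae of the stage table each allele had 0.0340 FPKM.

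Peg3 encodes a large zinc finger protein. Its maternal and paternal values were 0.142 and 0.219 FPKM in 8-cell embryos, 0.0521 and 0.833 in morulae and 0 and 0.402 in ICM, all under 1 FPKM in sum. TE had 0 and 2.24 FPKM, epiblast 0.0491 and 2.41, VE 1.63 and 55.6, ExE 0.404 and 26.9 and yolk sac 0 and 30.8. The share was 100% in TE and between 97.2% and 98.5% in the 3 tissues at E6.5. Just under the minimum, Peg3 had 94.1% in morulae at 0.886 FPKM, and at 0.360 FPKM in 8-cell embryos it had 60.7%. Peg3 was 4.07 higher on the log2 scale in VE than in epiblast, and 3.03 higher in ExE than in epiblast. Of the genes listed at its locus, Usp29 had shares of 30.3% in 8-cell embryos and 32.9% in morulae, at 1.47 and 1.64 FPKM.

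**Figure D2:**
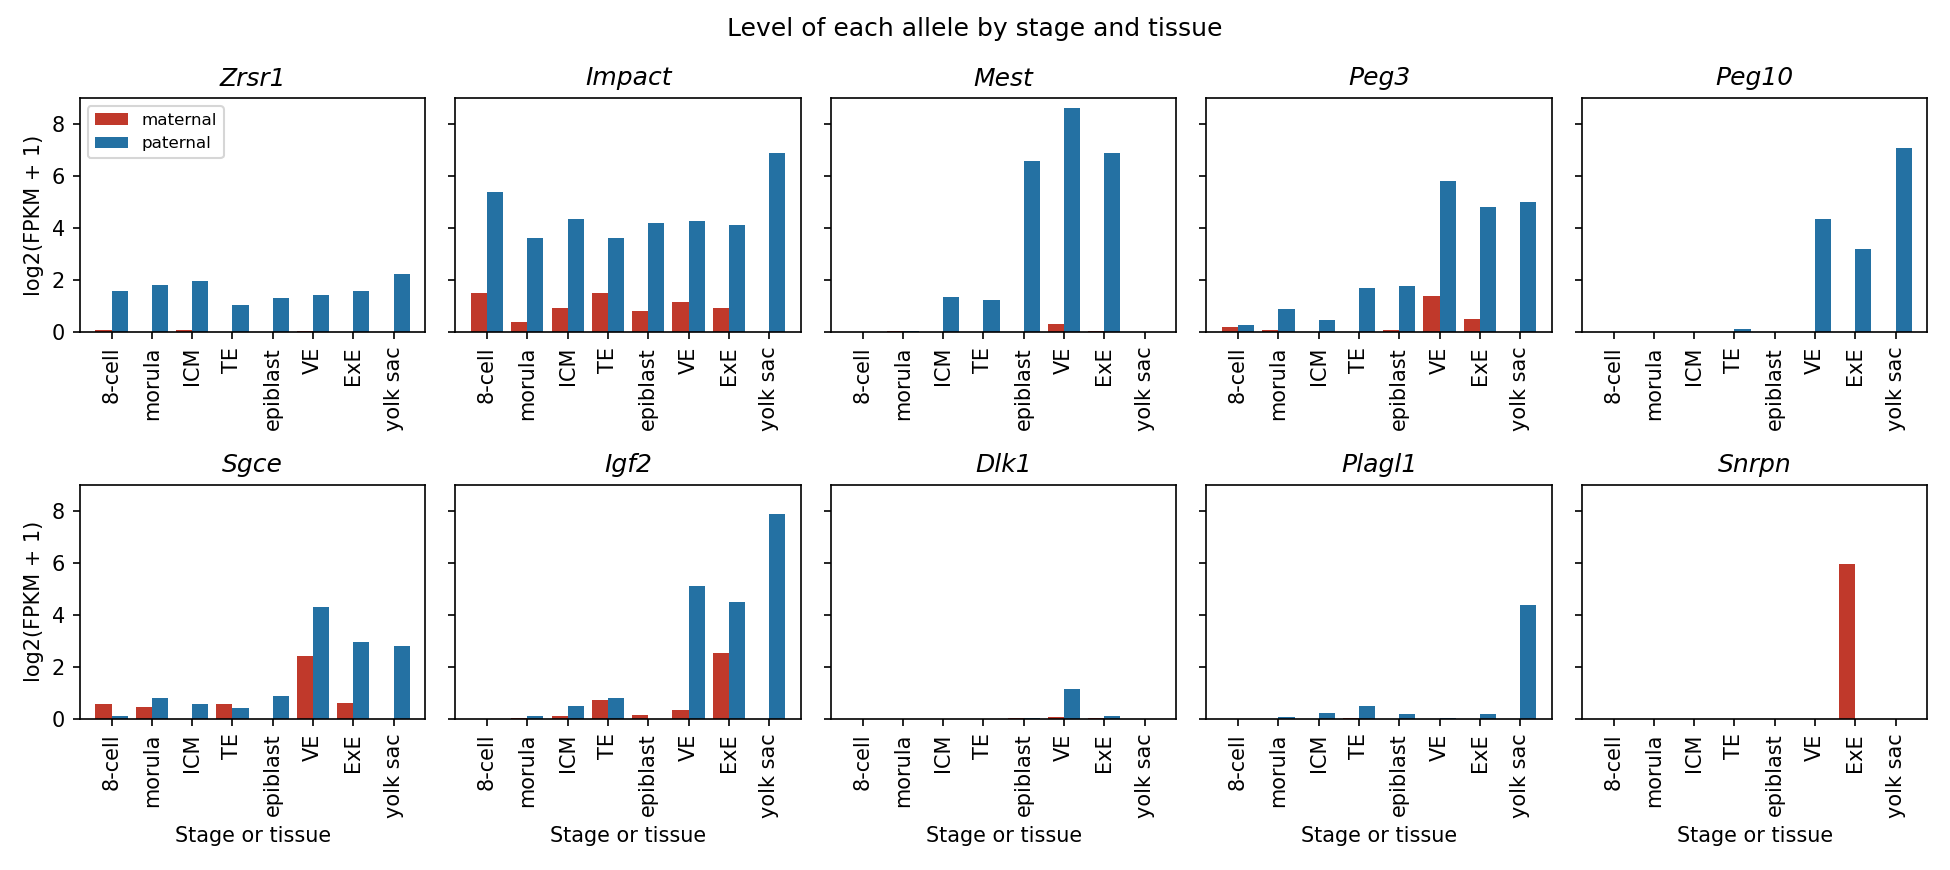
Level of the maternal (red) and paternal (blue) allele of each gene, as log2 of FPKM plus 1, in the 8 columns of the stage table. The paternal bars of Mest, Peg3, Peg10, Sgce and Igf2 are tall in VE and ExE, the maternal bar stands out for Sgce in VE (4.34 FPKM) and Igf2 in ExE (4.77 FPKM), and Snrpn has 1 maternal bar.

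Peg10 and Sgce lie next to each other on chromosome 6 and start from a shared region in opposite directions. Their paternal shares were 100% and 81.0% in VE, 99.9% and 92.6% in ExE, and 100% each in yolk sac. Peg10 derives from a retrotransposon and is needed for placental growth, and Sgce encodes epsilon-sarcoglycan, a membrane protein. Peg10 was listed at 0 in 8-cell embryos, morulae, ICM and epiblast. Its paternal allele had 0.0929 FPKM in TE, 19.3 in VE, 8.19 in ExE and 135 in yolk sac. Its maternal allele was above 0 in ExE alone, at 0.00522 FPKM, and its share was 99.9% to 100% in the 3 measured columns.

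Sgce had maternal RNA in both early and late columns. Its maternal and paternal values were 0.486 and 0.0810 FPKM in 8-cell embryos, 0.366 and 0.760 in morulae, 0 and 0.498 in ICM, and 0.468 and 0.334 in TE. Within the stage table, the share of 67.5% in morulae was the only one at 1 FPKM or more before E6.5. In 8-cell embryos and TE, at 0.567 and 0.802 FPKM in sum, the share was 14.3% and 41.7%. Epiblast had 0 and 0.826 FPKM. VE had 4.34 and 18.5 FPKM, a share of 81.0%, and ExE 0.536 and 6.75, a share of 92.6%. Yolk sac had 5.94 FPKM from the father and 0 from the mother. In the same VE column, Peg10 had no maternal FPKM, Peg3 had a share of 97.2% and Mest of 99.9%. Markers of epiblast and ICM summed to 228 FPKM in VE, against 753 in epiblast. Nearly all of it was Fgf5 at 91.9 FPKM (60.8 in epiblast), Otx2 at 87.5 and Utf1 at 47.2. Of the other epiblast and ICM markers, Nanog was at 1.28 FPKM in VE (9.01 in epiblast) and Fgf4 at 0 (19.8). Pou5f1 was at 0.334 FPKM (79.4 in epiblast), Tdgf1 at 0.156 (104) and Sox2 at 0.0722 (4.14). The 6 decidua markers summed to 16.0 FPKM in VE, of which nearly all was Bmp2, with Prl8a2, Dcn and Hand2 at 0. Their part in the maternal Sgce value was not tested. Other genes near Peg10 and Sgce gave balanced shares in VE: Casd1 had 50.3%, Pon2 51.7%, Ppp1r9a 42.8% and Asb4 39.8%.

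Igf2 and Dlk1, whose imprint is set in sperm, were low before E6.5. Igf2 encodes a fetal growth factor. Its alleles were at 0 in 8-cell embryos, and its maternal and paternal values were 0.0148 and 0.0739 FPKM in morulae, 0.0848 and 0.424 in ICM and 0.107 and 0 in epiblast. In TE they were 0.642 and 0.722 FPKM, a balanced share of 52.9% at 1.36 FPKM in sum. VE had 0.256 and 33.6 FPKM (99.2%), ExE 4.77 and 21.2 (81.7%) and yolk sac 0 and 235. The trophoblast columns were thus the measured ones with shares under 90%. The maternal Igf2 level in ExE was well above that in VE, while the total differed by a log2 ratio of 0.37 in favour of VE. Decidua markers summed to 2.45 FPKM in ExE, with Prl8a2 and Hand2 at 0, and endoderm markers to 243 FPKM against 2768 in VE. Markers of epiblast and ICM summed to 350 FPKM in ExE, with 7 of 8 at 1 FPKM. Utf1 alone had 276 of this, while Pou5f1 had 14.0, Sox2 7.82, Nanog 7.35 and Fgf4 0.307. Their part in the maternal Igf2 value was not tested.

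H19, the maternally expressed RNA gene beside Igf2, was read mainly from the other allele. Its share was 8.10% in VE (486 maternal and 42.9 paternal FPKM), 2.72% in ExE (208 and 5.81) and 0% in yolk sac (238 FPKM from the mother). It was 0% in epiblast as well, at 1.38 FPKM. Igf2r, the maternally expressed receptor gene that clears IGF2, had shares of 39.6% in 8-cell embryos, 49.6% in morulae, 35.1% in ICM and 38.9% in TE. In epiblast it had 46.7%, in VE 3.37% and in ExE 9.90%.

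Dlk1 encodes a membrane protein related to Notch ligands. It was listed at 0 in 8-cell embryos, morulae, ICM, TE and yolk sac. Epiblast had 0.0291 FPKM from each allele, ExE 0.0297 from the mother and 0.0892 from the father, and VE 0.0438 and 1.24. It was measured in VE alone, with a share of 96.6%. The genes Meg3, Rian, Mirg and Rtl1 of its locus were higher in all 3 tissues at E6.5, with almost all FPKM from the mother. In VE, Meg3 had a share of 2.26%, Rian 2.13%, Mirg 3.18% and Rtl1 2.02%, and in ExE they had 0.864%, 0.435%, 1.02% and 0.813%. All 4 had 0% in epiblast. Rtl1, whose protein-coding transcript is known as paternally expressed, overlaps a maternal antisense RNA, and strand is lost in Smart-seq2, so its reads cannot be assigned to one of them.

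Plagl1 and Snrpn were measured in 1 stage column each. Plagl1 encodes a zinc finger transcription factor that acts on other imprinted genes. Its paternal allele had 19.9 FPKM in yolk sac, with the maternal allele at 0. In that column of 1 sample, the maternal allele of all 10 genes was at 0. Of autosomal genes at 5 FPKM or more there, 17.7% had a share of at least 90% and 17.9% of at most 10%. In the other stage columns the total of Plagl1 was at most 0.400 FPKM, in TE, where the share was 97.4%. Snrpn encodes a spliceosomal Sm protein and is among the best known paternally expressed genes. It was listed at 0 for both alleles in all columns but ExE, where 61.2 FPKM came from the mother and 0 from the father. This went against its listing as a paternally expressed gene. Snurf, which shares its transcript with Snrpn, was listed at 0 in all columns. How shared reads were counted between them is not given, so the value is uncertain. Ndn, farther along the same imprinted cluster, had 76.9% in epiblast and 88.9% in ExE. Ube3a, the ubiquitin ligase gene at its end, was balanced there, at 48.6% and 51.0%.

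**Figure D3:**
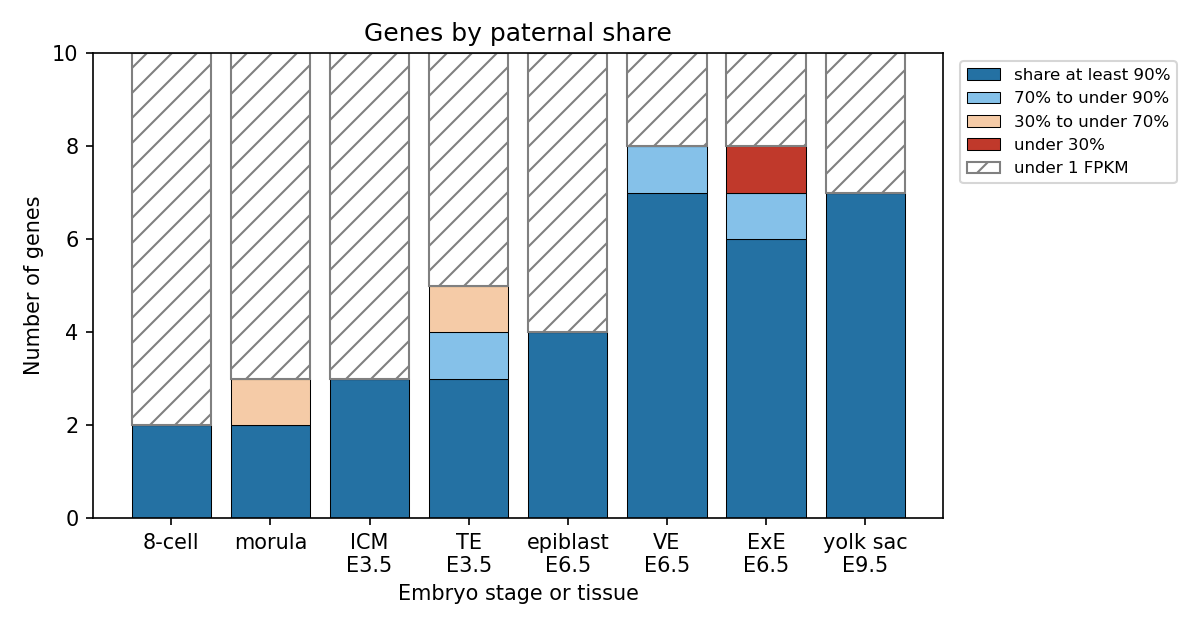
Number of the 10 genes by paternal share in each column of the stage table, with hatching for genes under 1 FPKM. The count of measured genes goes from 2 in 8-cell embryos to 8 in VE and ExE, and the genes under 90% are in morula, TE, VE and ExE.

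Within the stage table, the first column with a share of at least 90% was the 8-cell embryo for Zrsr1 and Impact. It was E3.5 for Mest and Peg3, and E6.5 for Peg10, Igf2, Sgce and Dlk1. For Plagl1 it was yolk sac, a sparse column of 1 sample where 23.1% of autosomal genes also passed. Snrpn reached such a share in no column. The control morulae of the morula table place Mest earlier, with a share of 100% in both sexes. For Zrsr1, Impact, Mest, Peg3, Peg10, Dlk1 and Plagl1 this was also the first column in which the gene was measured, so these data hold no earlier biallelic phase at 1 FPKM for them. Sgce and Igf2 were measured earlier, in morulae and TE, at 67.5% and 52.9%. After the first monoallelic column or in another tissue of the same age, the exceptions were Impact in TE, Igf2 in ExE and Sgce in VE.

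In the stage table, Impact was the only one of the 10 at 5 FPKM before implantation, and it was within 2-fold between morula, ICM and TE. Its log2 ratio was 0.77 for ICM over morula, where 18.1% of autosomal genes were 2-fold higher and 10.3% lower. For TE over morula it was 0.18 (21.8% higher and 17.3% lower), and for ICM over TE 0.59 (12.9% and 11.4%). In level, Peg3, Peg10, Mest, Igf2 and Sgce were higher in VE and ExE than in any earlier column. Between VE and ICM, 5 of 6 genes at 5 FPKM in either column were at least 2-fold higher on FPKM plus 1, beside 16.1% of autosomal genes, and none was lower (31.1%). Between ExE and TE it was 6 of 7 (22.2%), Snrpn included, and none was lower (16.7%). Between VE and epiblast it was 5 of 6 (17.2%) with none lower (18.7%), and between ExE and epiblast 5 of 7 (19.5%) with none lower (5.94%). All of those genes but Impact and, in epiblast, Mest, reached 5 FPKM only in the column where they were higher, so these counts are a description. VE exceeded ExE at least 2-fold for Peg3, Peg10, Mest and Sgce, which is 4 of 7, beside 9.37% of autosomal genes, and Snrpn was the 1 lower gene (26.7%). Between epiblast and ICM, Mest was higher and Impact neither (13.9% of autosomal genes higher and 28.2% lower). In yolk sac over VE, Peg10, Igf2, Impact and Plagl1 were higher, 4 of 7 beside 8.18% of autosomal genes, and Mest and Sgce lower (60.2%).

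Each tissue had markers of its own list, but several, among them ICM, VE and ExE, also had markers of other lists. In yolk sac most blood and vessel markers were at 0. TE markers summed to 3692 FPKM in TE and 1225 in ICM. ExE markers summed to 275 FPKM in ExE, against 9.28 in epiblast and 61.2 in VE, where Eomes had 59.2. Markers of ICM and epiblast summed to 942 FPKM in ICM, 753 in epiblast, 350 in ExE and 228 in VE. Endoderm markers summed to 2768 FPKM in VE and 243 in ExE. Yolk sac had endoderm markers at 5733 FPKM, of which Afp had 3745 and Ttr 1319, while Gata6, Sox17 and Pdgfra were at 0. Of its blood and vessel markers Hbb-bh1 had 313 FPKM, Hba-x, Hbb-y, Kdr, Pecam1 and Gata1 were at 0, and only 4163 genes reached 1 FPKM there, against 7178 to 9164 in the other stage columns.

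Of 39 other genes listed as paternally expressed, 36 were in the stage table. In 8-cell embryos 3 of 6 measured genes had at least 90%: Gab1 and Slc38a4 at 100% and Fkbp6 at 98.7%, with Usp29 (30.3%) and Gnas (32.3%) lowest. TE had 7 of 9, including Slc38a4 at 99.9%, Fkbp6 at 99.7% and Sfmbt2 at 99.3%. In morulae it was 3 of 7 and in ICM 3 of 8. In VE it was 5 of 15. Slc38a4 (100%), the antisense RNA genes Kcnq1ot1 (99.6%) and Airn (98.9%) and Fkbp6 (98.9%) were highest, and Rtl1 (2.02%), Smoc1 (35.1%), Asb4 (39.8%) and Gnas (43.3%) lowest. In ExE it was 7 of 15, with Peg12 at 100% and Sfmbt2 at 99.5%. In epiblast it was 2 of 10, Nnat at 100% and Zdbf2 at 97.4%. In yolk sac it was 2 of 9, with another 2 at a share of 10% or less. Of autosomal genes at 1 FPKM, 3.61% passed 90% in 8-cell embryos, 1.84% in morulae, 1.82% in ICM and 1.65% in TE. At E6.5 this was 1.65% in epiblast, 0.709% in VE and 1.38% in ExE, and in yolk sac it was 23.1%. Gnas and Inpp5f carry imprinting only in some transcripts, which gene-level values merge.

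Of 15 listed factors that set or keep methylation imprints, 12 were measured in 8-cell embryos and 13 each in morulae, ICM and TE. At E6.5 it was 13 in epiblast and 12 each in VE and ExE. Within the stage table, Ctcfl was listed at 0 in each column before E6.5. Zfp57 summed to 3.97 FPKM in 8-cell embryos, 4.21 in morulae and 0.237 in TE, and ICM had 8.95 from the mother and 2.03 from the father. Dppa3, which protects maternal methylation after fertilization, had 4818 FPKM in 8-cell embryos, 992 in ICM and 508 in TE. Dnmt1, the maintenance methyltransferase gene, had 1.53, 4.32, 5.90 and 3.51 FPKM in 8-cell embryos, morulae, ICM and TE.

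By paternal share, the genes most like the 10 were found among 7351 other autosomal genes with at least 1 FPKM in 5 or more stage columns. The root mean square difference from the median profile of the 10 was smallest for Sfmbt2 (5 columns), followed by 1.74 points for Ube2v1 (8), 1.84 for Hnrnpa3 (7), 2.02 for Gm8615 (7) and 2.42 for Hp1bp3 (7). Sfmbt2 is a known paternally expressed gene. Ube2v1 had at least 97.7% in all 8 columns. It and Hnrnpa3 belong to families with near-identical copies, so their shares are uncertain. By total level over the 8 columns, Pearson's r with the median of the 10 was 0.99 for Uaca, Stard8 and H19 and 0.98 for Afap1 and Spink3, as a description of 8 columns.

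The morula table sets Xp XRRa KO beside wild-type morulae of both sexes. Zrsr1, Impact, Mest and Sgce were measured in all 3 groups, and 3 of these 4 had at least 90% in each group, beside 2.42% of autosomal genes in control males, 3.12% in control females and 2.21% in Xp XRRa KO morulae. Zrsr1 had maternal and paternal values of 0 and 2.36 FPKM in control males, 0 and 3.87 in Xp XRRa KO, and in control females 0.0370 from the mother in a sum of 2.24. Impact had 0.502 and 21.8 FPKM in control males, 0.0894 and 16.9 in control females and 0.352 and 13.5 in Xp XRRa KO. The shares of both genes were between 97.5% and 100%.

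Mest had 0 and 6.42 FPKM in control males, 0 and 6.57 in control females and 0.114 and 2.97 in Xp XRRa KO. Its share was 100%, 100% and 96.3%. Its total differed by a log2 ratio of -0.89 between Xp XRRa KO and control females, short of 2-fold. Mest stood at 0.0680 FPKM in the female morulae of the stage table, which was normalized separately, so the wild-type morula groups themselves were far apart for this gene.

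Sgce was the 1 measured gene under 90% in every morula group. Its maternal and paternal values were 0.479 and 1.44 FPKM in control males, 0.869 and 1.46 in control females and 2.01 and 1.87 in Xp XRRa KO. The share was 75.0%, 62.7% and 48.1%, and the female morulae of the stage table had 67.5%. The share of Sgce in Xp XRRa KO was -14.6 points from that in control females, and 18% of autosomal genes at 1 FPKM in both were lower by at least 10 points. Among autosomal genes between 1 and 5 FPKM in both, as Sgce was, it was 29.4%. The difference for Mest was -3.71 points, for Impact -2.02 and for Zrsr1 1.65, and the autosomal median was 0.156. In total level, neither of the 2 genes at 5 FPKM (Mest and Impact) was 2-fold different between Xp XRRa KO and control females, beside 3.91% of autosomal genes higher and 3.62% lower. The same held for Xp XRRa KO over control males (4.55% of autosomal genes higher and 5.76% lower) and for control males over control females (2.97% and 2.32%).

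The other members were below 1 FPKM in all morula groups. Igf2 had 0.256 and 0.174 FPKM in control males, 0 and 0.479 in control females and 0.00991 and 0.544 in Xp XRRa KO. Peg3 had between 0.429 and 0.843 FPKM in sum, with shares of 93.1% to 100%. Peg10 and Plagl1 had RNA from the father only, at most 0.317 and 0.0348 FPKM. Dlk1 had 0.00406 FPKM in control females and was otherwise at 0, and Snrpn was at 0 throughout. Snhg14, the RNA gene that extends from Snrpn, had 7.92, 10.8 and 15.5 FPKM in sum in control males, control females and Xp XRRa KO, with shares of 99.9% to 100%, while the stage table listed it at 0 in all columns.

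**Figure D4:**
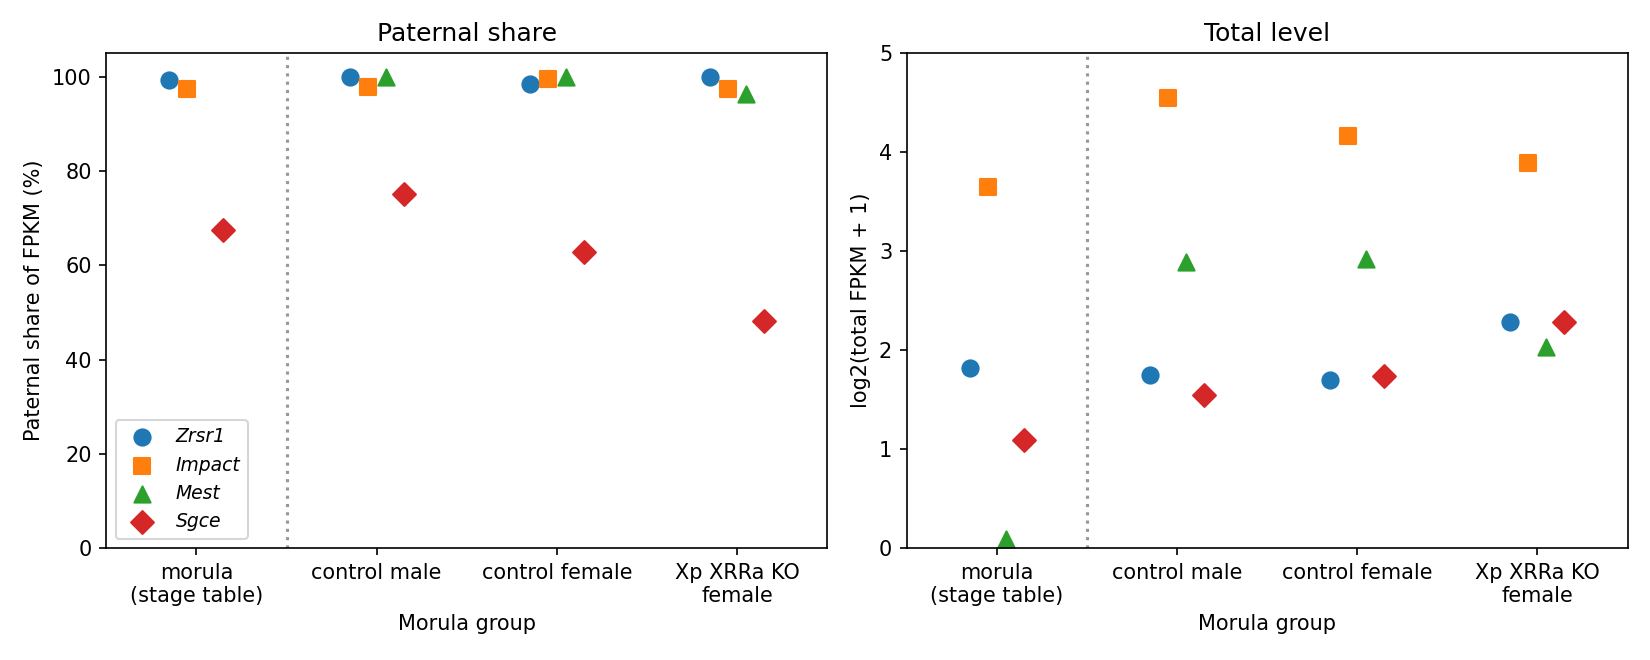
Paternal share in percent (left) and log2 of total FPKM plus 1 (right) of Zrsr1, Impact, Mest and Sgce in the 4 morula groups, with 1 pooled value per point, points offset sideways for clarity and a dotted line between the separately normalized tables. Sgce lies apart at 48.1% to 75.0%, the others are at 96.3% or above, and Mest has no share in the stage table because its total there was 0.0680 FPKM.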

How the data were processed

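The authors deposited FPKM for each allele, with 1 maternal and 1 paternal column per group, per the file headers. RNA was captured by its poly(A) tail, per the labels' protocols. Tools named in the submitters' processing notes are HISAT2 2.2.0, StringTie 2.1.1 and Trim Galore 0.6.4, with the build mm9. The step that split reads by allele is not given in the sources used here. Both tables are treated as normalized separately, and 5 summary lines were left out. Depth is unknown because no counts were given. Among genes whose lower allele was between 0 and 0.2 FPKM and whose allele ratio was under 6, the ratio lay within 0.002 of a ratio of whole numbers with a denominator up to 3 for 86.0% in epiblast, 44.9% to 53.3% in the pooled stage columns (yolk sac had 7 such genes) and 7.43% to 10.7% in the morula table. Reads were not recovered from this.

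Gene totals, paternal shares (total of at least 1 FPKM) and log2 ratios (FPKM plus 1) were computed in Python 3.11.15 with numpy 2.4.6 and pandas 2.3.3. Autosomal genes were found by symbol or synonym in RefSeq (GRCm38.p6), in which 23968 of 24083 genes matched; no coordinates of genes were taken from it. A level call needed 5 FPKM in 1 column and a 2-fold ratio. The 10 genes and all lists were chosen with earlier results of these data known. All 10 were named in every column, list genes by up to 4 highest and lowest shares or as neighbours of a member, and the 5 nearest genes by profile. The share, onset and likeness procedures were tested on simulated data. Alternatives changed the minimum total, the share called monoallelic, the pseudocount, the scaling and the reference group.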

Additional observations from a re-analysis of the deposited data

How the results depend on the processing

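No paired analysis was possible because the columns pool the replicates, and for the same reason no replicate could be left out. Counts at 90% were within 1.5 times of the reported ones with shares of 80% or 95%. With a minimum of 5 FPKM the count was 1 each at the 8-cell stage, in morulae and in ICM, 0 in TE, 2 in epiblast and 1 in Xp XRRa KO morulae, and with 0.5 FPKM it was 5 in the last. With 5 FPKM the number of genes in the stage table with a monoallelic column by the morula and by E3.5 was 1 in both cases, in place of 2 and 4, because only Impact was left. The median share of measured genes, 96.5% in 8-cell embryos, was 78.2% with no minimum. In TE it was 100%, and 93.0% with 0.5 FPKM, 85.9% with 5 FPKM and 85.5% as a ratio of summed FPKM. As such a ratio it was 74.5% in ExE, where Snrpn entered with its maternal value, and 90.2% in Xp XRRa KO morulae. The percentage of measured pairs at 90% was 85% and 81.8% without yolk sac, and the ExE median share was 96.6% and 98.5% without Snrpn; both of these alternatives were chosen after seeing the data. Of all alternative values, 89 stayed close to the reported ones (within 5 points, 0.2 log2 or 1.5 times) and 15 did not. The sign of 2 small medians that were never called changed with the reference. The median share difference of Xp XRRa KO was -2.86 points from control females and 0.159 from the morulae of the stage table. The latter median lacks Mest, which was under 1 FPKM there, so the genes differ as well as the reference. The median log2 ratio of totals was 0.14 over control females and -0.06 over control males.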
